A study of Mus musculus with 20 samples.

Results

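The proteasome subunit genes were taken as every row of the gene table whose symbol starts with Psma, Psmb, Psmc or Psmd followed by a number, or is Psme1, Psme2, Psme3 or Psme4. This gave 44 of the 24062 genes measured by RNA sequencing in microglia of male mThy1-α-synuclein mice and of their wild-type littermates. The mThy1-α-synuclein mice (genotype labelled HEM) carry a wild-type human transgene under the murine Thy-1 promoter, which drives expression mainly in neurons, inserted on the X chromosome of a B6D2F1/J background. Microglia were isolated from the whole brain of single mice with magnetic beads (described as IBA1 selected in the sample labels and as a CD11b selection in the methods of the study), from 6 transgenic animals and 4 controls aged 7 months and 5 of each aged 10 months. The groups are written 7H, 7W, 10H and 10W in the plots, where H stands for mThy1-α-synuclein and W for wild-type. Mice of each age were processed together, so age cannot be told apart from the day of processing, and levels are compared here between genotypes within an age.

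The 26S proteasome degrades proteins that carry ubiquitin chains. Its 20S core is a barrel of alpha rings, which gate the entry, and beta rings, which hold the active sites. The 19S regulatory particle sits on the barrel: its base of ATPases unfolds the substrate, and its lid and ubiquitin receptors bind and deubiquitinate it. Immune cells, and other cells exposed to interferon, replace the constitutive catalytic subunits Psmb5, Psmb6 and Psmb7 by Psmb8, Psmb9 and Psmb10 in newly made cores, which forms the immunoproteasome and changes the peptides offered to MHC class I. Microglia are the resident macrophages of the brain.

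Between 33404096 and 77806399 reads were counted on genes per mouse, and the 44 genes together took 0.279% to 0.330% of them. Values are depth-normalized counts, that is, reads divided by a size factor of the mouse. The label check held: Thy1, whose promoter is in the transgene, was at 392 to 1298 in the 7-month and 1117 to 1741 in the 10-month mThy1-α-synuclein mice and at 9.41 to 47.6 in every wild-type mouse. The summed level of 12 microglial marker genes lay between 1831310 and 2416510 in all mice. Of these, 1 was called higher in mThy1-α-synuclein mice at 7 months and 4 at 10 months. Markers of other cells were not level between genotypes. At 7 months the summed lymphocyte markers were at 284 to 728 in mThy1-α-synuclein and 1055 to 1968 in wild-type mice, the oligodendrocyte markers at 7845 to 10167 and 12702 to 18093, the endothelial markers at 2562 to 4218 and 4633 to 5684, and the neuronal markers, of which 4 of 8 were called lower, at 287 to 549 and 544 to 1118. The 7-month monocyte sums were at 8244 to 33821 and 9572 to 28703, and the neutrophil sums at 29424 to 260525 and 52803 to 186234. Both sums were lowest in mThy1-α-synuclein replicates 1, 2 and 3 and wild-type replicate 4 of that age. Of 6 astrocyte markers at 7 months, 2 were called lower and 1 higher, while their sums overlapped between genotypes. At 10 months the lymphocyte markers were at 283 to 570 and 705 to 1763, the border macrophage markers, of which 3 of 6 were called lower, at 13355 to 17223 and 17889 to 22007, the monocyte markers at 9496 to 19380 and 19006 to 40405, and the neutrophil markers, of which Ly6g is not among the genes in the data, at 46519 to 125246 and 104899 to 253838. Fewer cells of a type and less RNA per cell cannot be told apart in these samples.

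Of the 44 genes, 8 encode alpha subunits, 7 the constitutive beta subunits, 4 the immunoproteasome and thymic beta subunits, 6 the ATPases of the 19S base, 11 other 19S subunits, 3 chaperones that assemble the 19S base and 4 the activators that can replace the 19S particle. The remaining gene, Psmc3ip, fits the naming pattern but encodes a factor of meiotic recombination and is no subunit. Genes were compared in level as normalized counts per kb of annotated exon (GENCODE annotation of the mm10 build), averaged over the 4 groups. Exon length joined the exons of all annotated transcripts of a gene. It can exceed the length of the RNA present, so levels between genes are approximate. Psme1, a subunit of the interferon-inducible PA28 activator, was highest at 4079 per kb, followed by the alpha subunit Psma6 at 3438. The class medians were 2091 per kb for the activators, 1709 for the ATPases, 1514 for the alpha ring, 1091 for the other 19S subunits, 1020.2 for the constitutive beta ring and 216 for the assembly chaperones. Levels within a class differed too, from 895 (Psmc2) to 2426 (Psmc3) among the ATPases, which sit in equal numbers in the particle, and from 766 (Psmb5) to 1881 (Psmb2) among the constitutive beta subunits.

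At the low end stood genes known from other organs. Psma8, the alpha subunit of the testis, reached 155 per kb, about as little as the chaperone Psmd9 (97), and Psmc3ip 48.6. Psmb11, the catalytic subunit of the thymus, was at 0 in 7 of the 20 mice, at most 3.60 in 12 and at 11.8 in 1 wild-type mouse of 7 months, and was the only member that failed the filter of at least 10 counts in as many mice as the smaller genotype group holds, so 43 members were tested. The 44 genes were ordered by level averaged over the 4 groups, and neighbours were compared in the 7-month wild-type mice. In 34 of the 43 neighbouring pairs the first gene did not exceed the next by more than the sum of their SDs. Pairs in the reverse order in these mice are counted among the 34. The orders of the 7- and 10-month wild-type groups had a Spearman rho of 0.980 over the 44 genes, which share the libraries.

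**Figure D1:**
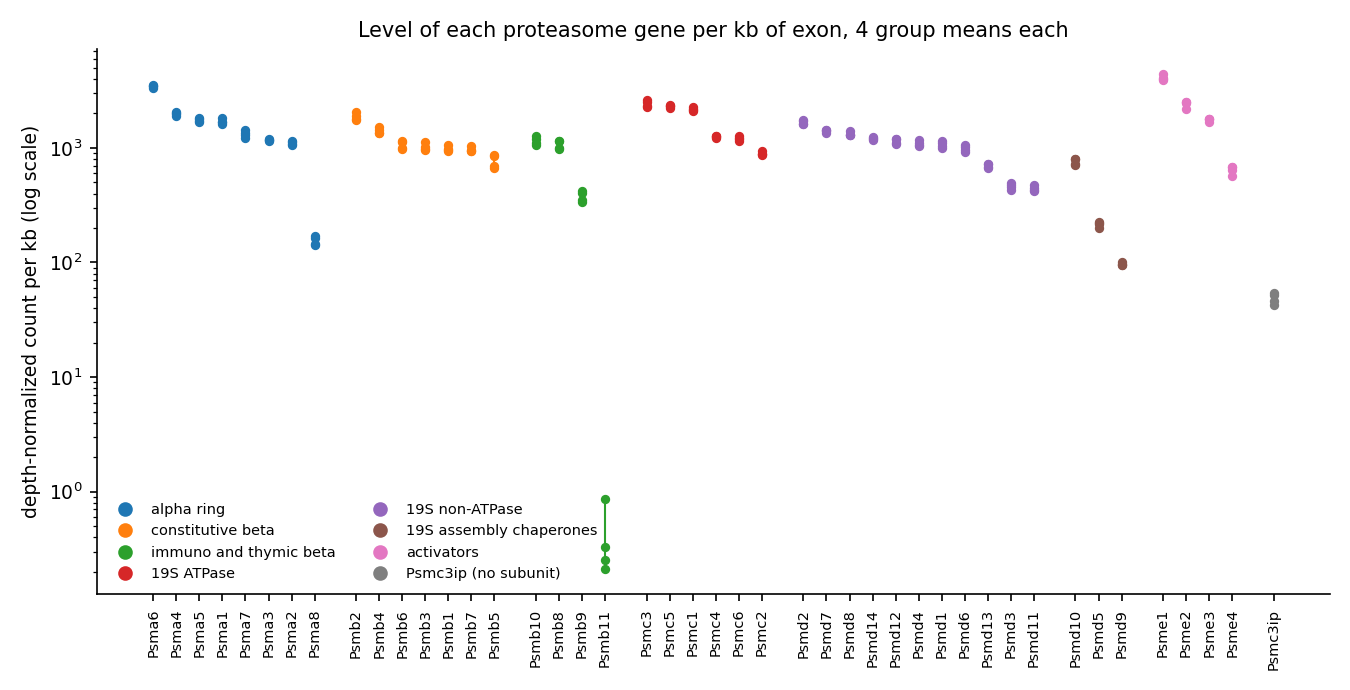
Depth-normalized count per kb of exon (log scale) of each proteasome gene, in class order and from high to low within a class. Each point is the mean of 1 of the 4 groups (7H, 7W, 10H, 10W). The 4 points of a gene nearly coincide for most genes, Psme1 and Psma6 are highest, and Psmb11 lies far below all others.

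No proteasome gene passed the test between genotypes at either age. With limma on log2(value + 1), 0 of 43 members had an adjusted p under 0.05 at 7 months, where 4.93% of all 13887 tested genes did, and 0 of 43 at 10 months, where 7.67% of 13627 did. edgeR and DESeq2 on the recovered reads also called 0 members at each age, with 5% and 8.51% of all genes called at 7 months and 7.93% and 12.4% at 10 months. At an unadjusted p under 0.05 there were 7 members at 7 months (21.3% of all genes), of which 1 was on the higher and 6 on the lower side (10.7% and 10.6% of all genes), and 5 at 10 months (23.5%), all on the lower side (12%). The total was a smaller share than among all genes at each age. The 6 on the lower side at 7 months were not far above the share of all genes and are not read as a result about the members. The groups did not overlap for 2 members at 7 months (7.53% of all genes), Psmd11 on the higher side (3.55%) and Psmb3 on the lower side (3.97%), and for 0 at 10 months (7.27%).

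The differences were small and mostly to the lower side. At 7 months 28 of 43 members had the lower mean in mThy1-α-synuclein mice and the median difference was -0.050 (log2), beside 49.8% of all genes and a median of 0.00093. At 10 months 34 of 43 were lower, with a median of -0.075, beside 50.5% and -0.0026. Without the 10-month mThy1-α-synuclein mouse that was lowest in more members than any other and the wild-type mouse that was highest in more members than any other of its age (replicates 1 and 5), 26 of 43 were lower at 10 months. These mice were picked for those values, so fits without them move the differences of the members upward by construction. Such fits show how far these mice set the values and test nothing. Single differences ran from -0.28 (Psmb5) to 0.20 (Psma8) at 7 months and from -0.42 (Psmb5) to 0.22 (Psma8) at 10 months. Over the 42 tested members other than Psmc3ip, the lowest and highest bounds of the 95% confidence intervals corresponded to changes of -33.9% and 52.5% at 7 months and -40.1% and 38.2% at 10 months, so larger changes lay outside every interval.

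**Figure D2:**
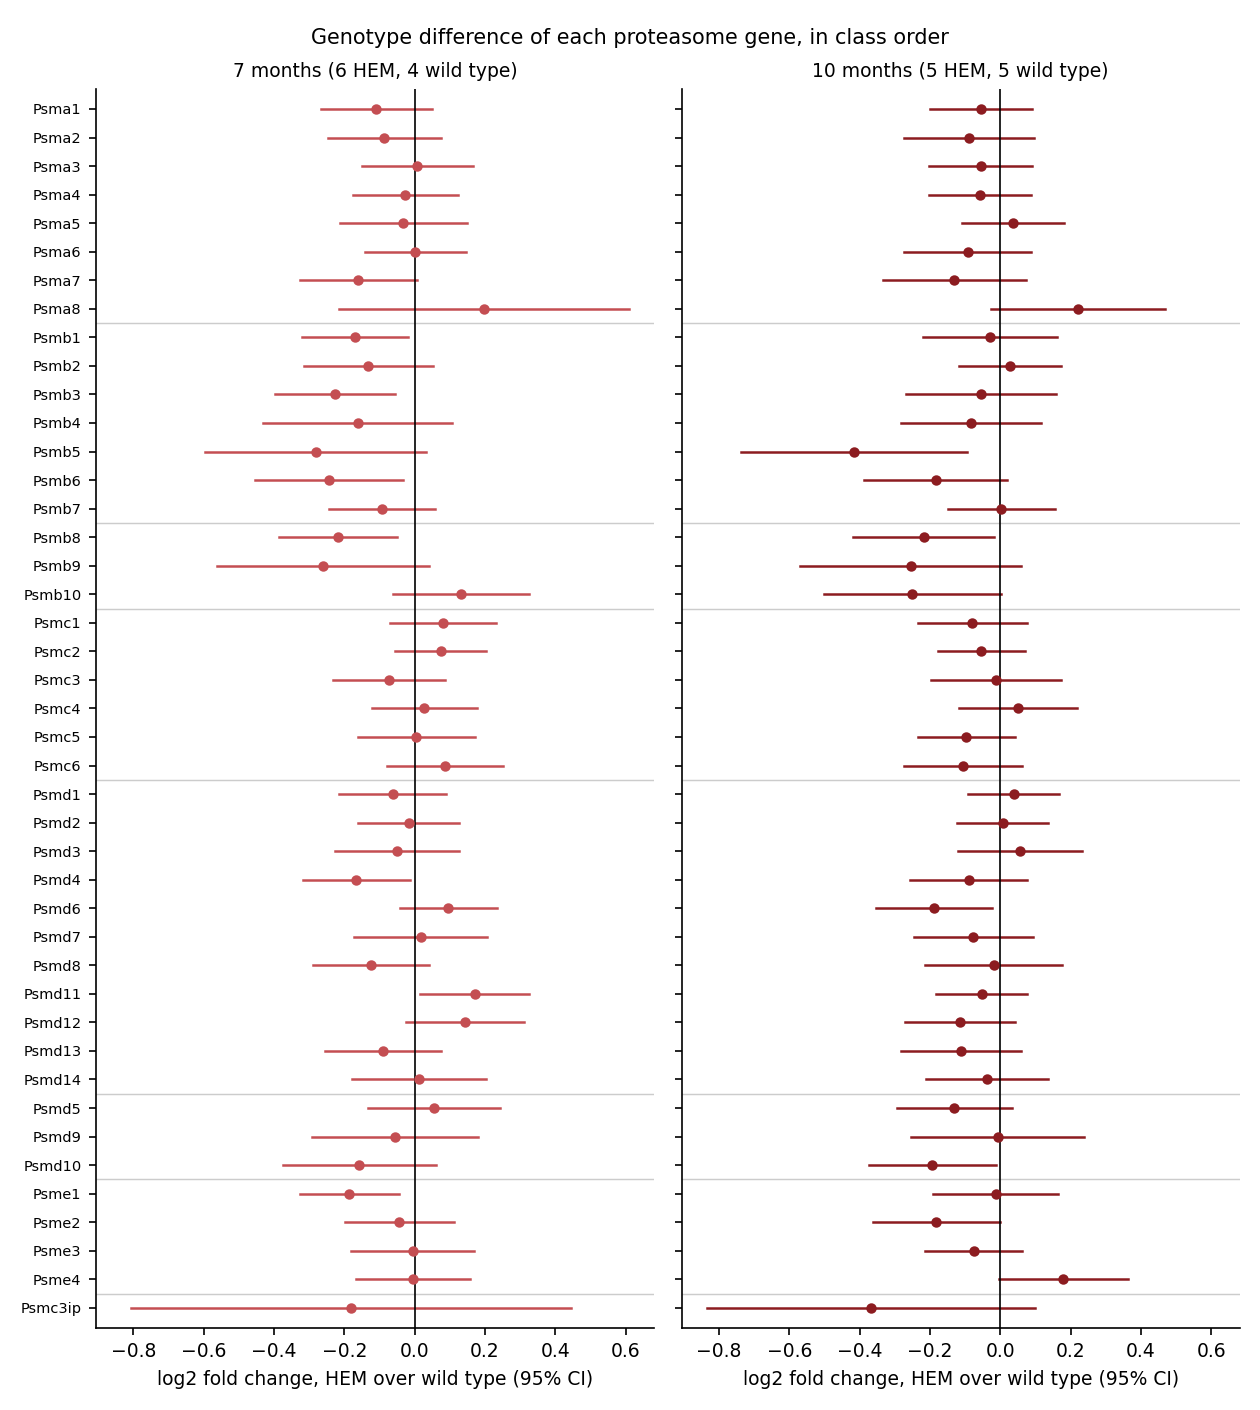
Log2 fold change of each proteasome gene, mThy1-α-synuclein (HEM) over wild type, at 7 months (left) and 10 months (right), with points for the estimate and bars for the 95% confidence interval of the limma fit. Grey lines part the classes. Most intervals include 0, the constitutive beta subunits are all left of 0 at 7 months, and Psmb5 is the lowest gene at each age (-0.28 and -0.42).

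The alpha ring, which gates the barrel, was close to level between genotypes. Its median log2 fold change was -0.029 at 7 months (5 of 8 lower) and -0.056 at 10 months (6 of 8 lower), and 0 of its 8 genes had even an unadjusted p under 0.05 at either age. Psma6, the most abundant of them, had means ± SD of 4269.9 ± 139 (n = 6) and 4272 ± 312 (n = 4) at 7 months and 4079 ± 403 and 4350.4 ± 445 (n = 5 each) at 10 months. Psma7 was the lowest of the class at each age, with a log2 fold change of -0.16 at 7 months (adjusted p = 0.248) and -0.13 at 10 months (adjusted p = 0.441). The 10-month value leaned on the wild-type replicate 5, at 4867 when the other 4 wild-type mice were between 3885 and 3998. Psma8 was the highest, at 0.20 (adjusted p = 0.595) and 0.22 (adjusted p = 0.272). Its level was from 317 to 596 with a median of 384 in the 6 mThy1-α-synuclein mice and 445, 407, 248 and 318 in the wild-type mice at 7 months, and 482, 378, 457, 363 and 448 against 349, 348, 384, 409.9 and 329.8 at 10 months. The ranges overlapped at each age.

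All 7 constitutive beta subunits were lower in mThy1-α-synuclein mice at 7 months, and the class median was -0.17 (log2). Over fits without 1 mouse this median ran from -0.29, without wild-type replicate 2, to -0.13, without wild-type replicate 1. None passed the adjusted threshold, and 3 had an unadjusted p under 0.05: Psmb1, Psmb3 and Psmb6. Psmb3, a structural subunit of the ring, was from 2134 to 2237 with a median of 2188 in the 6 mThy1-α-synuclein mice and at 2786, 2261, 2891 and 2339 in the 4 wild-type mice. Every mThy1-α-synuclein mouse was thus below every wild-type mouse, by a small gap, with a log2 fold change of -0.23 (SE 0.0804, 95% CI -0.40 to -0.056, adjusted p = 0.116). Psmb1, another structural subunit, had a log2 fold change of -0.17 (SE 0.0713, 95% CI -0.32 to -0.018, adjusted p = 0.184) with overlapping groups. The class median at 10 months was -0.055 with 5 of 7 lower, and -0.055 for Psmb3 and -0.029 for Psmb1. Without mThy1-α-synuclein replicate 1 and wild-type replicate 5, picked as extreme mice, the class median at 10 months was 0.053. A shift in that direction is built into this choice of mice.

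Psmb5, which carries the chymotrypsin-like activity and is the least abundant constitutive beta subunit, had the largest difference of all members. At 10 months it was at 400.4, 788, 621, 628 and 535 in the 5 mThy1-α-synuclein mice and 901, 718, 756, 685 and 835 in the 5 wild-type mice. Of the 5 mThy1-α-synuclein mice, 4 were below the lowest wild-type value and 1 was within the wild-type range. The log2 fold change was -0.42 (SE 0.15, 95% CI -0.74 to -0.095, adjusted p = 0.108). Over the alternatives its adjusted p ran from 0.0451, without mThy1-α-synuclein replicate 2, which is the mouse at 788, to 0.317, without both replicate 1 of that group and wild-type replicate 5. At 7 months Psmb5 was from 521 to 758 with a median of 612 in the mThy1-α-synuclein mice and at 764, 555, 981 and 750.3 in the wild-type mice, with overlap, and the log2 fold change was -0.28 (SE 0.148, 95% CI -0.60 to 0.033, adjusted p = 0.291). Without wild-type replicate 2 (555) it was -0.42, and without wild-type replicate 3 (981) it was -0.15.

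Psmb6, with the caspase-like activity, was at 2411, 1845, 2390.3 and 2025 in the wild-type and from 1582 to 2123 with a median of 1779 in the mThy1-α-synuclein mice at 7 months, a log2 fold change of -0.24 (SE 0.0992, 95% CI -0.45 to -0.033, adjusted p = 0.168). The 10-month values were 1545, 2025, 1687, 2171 and 1959 against 2109, 1995, 2285, 1930.04 and 2288, with -0.18 (SE 0.0949, 95% CI -0.39 to 0.018, adjusted p = 0.26). The groups overlapped at each age. Psmb7, with the trypsin-like activity, was flatter, at -0.092 at 7 months and 0.0030 at 10 months (adjusted p = 0.482 and 0.985). The exons of Psmb7 overlap those of Nek6 on the other strand over 11.8% of their length, and the strand setting of the counts is not stated.

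**Figure D3:**
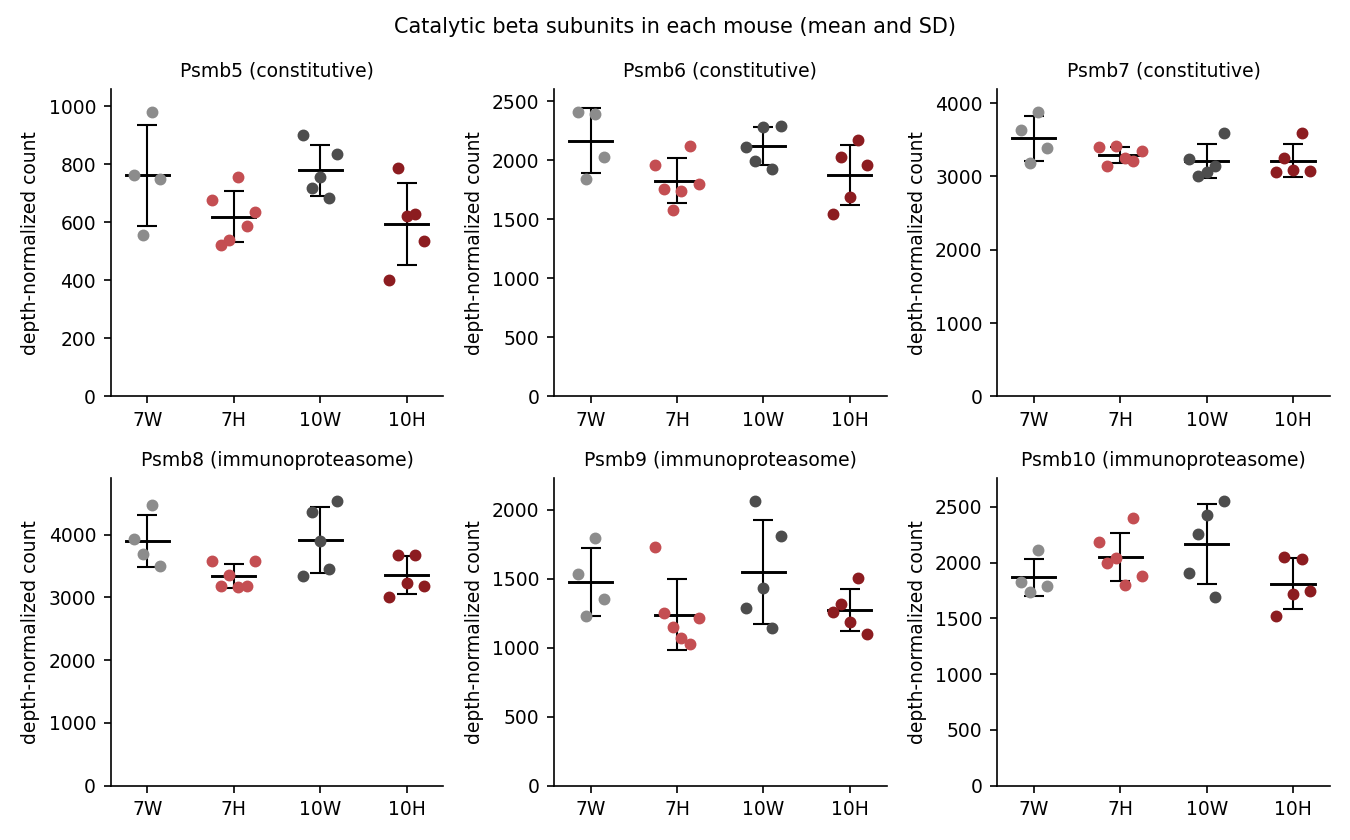
Depth-normalized counts of the constitutive catalytic subunits (top row) and of their immunoproteasome counterparts (bottom row) in every mouse. Points are mice, long lines are group means and bars are SDs (n = 4 in 7W, 6 in 7H, 5 in 10W and 5 in 10H), on axes that start at 0. The genotype groups overlap in each panel at each age.

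The immunoproteasome subunits were well expressed in the wild-type microglia samples, which also hold RNA of other immune cells. In the wild-type mice of 7 and 10 months Psmb10 stood at 1095 and 1271 per kb, above 1029 and 937 for its counterpart Psmb7. In counts not divided by length the order was the reverse, with 1974 for Psmb10 and 3308 for Psmb7 averaged over the 4 groups. The exon lengths used were 1705 bases for Psmb10 and 3421 for Psmb7. Psmb8 stood at 1152 and 1158 per kb, above 848 and 867 for Psmb5, while Psmb9 at 404 and 423 was below 1158 and 1133 for Psmb6. As a share of the pair per kb, Psmb8 made up 57.9% ± 4.18 of Psmb8 and Psmb5 in the 7-month wild-type mice (n = 4), Psmb10 51.6% ± 0.947 of Psmb10 and Psmb7, and Psmb9 25.8% ± 1.37 of Psmb9 and Psmb6. These are shares of RNA and not of assembled particles, and they depend on the exon lengths used.

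Psmb8 (mm10 chr17:34197721-34201454) and Psmb9 (chr17:34181987-34187764) lie on either side of Tap1 in the MHC region, Psmb10 at chr8:105935735-105938444, Psmb5 at chr14:54614119-54618022 and Psmb6 at chr11:70525367-70527858. The 150 bases before the RefSeq start (GRCm38.p6) of the subunits that swap places are shown so that the letters in front of a constitutive gene and of its counterpart can be set side by side. Capitals mark matches to TGACNNNGC (the core of the antioxidant response element), TTCNNNGAA (the core of the gamma-activated sequence) or CCAAT, on either strand. The core of the interferon-stimulated response element was searched too and is in none of the 4 stretches. Other annotated transcripts of Psmb5, Psmb8 and Psmb9 start upstream of the RefSeq start used.
Psmb5 (chr14:54617996-54618145, minus strand): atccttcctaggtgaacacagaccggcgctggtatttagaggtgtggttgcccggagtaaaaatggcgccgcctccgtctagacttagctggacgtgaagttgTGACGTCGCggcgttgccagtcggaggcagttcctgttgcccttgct
Psmb8 (chr17:34198045-34198194, plus strand): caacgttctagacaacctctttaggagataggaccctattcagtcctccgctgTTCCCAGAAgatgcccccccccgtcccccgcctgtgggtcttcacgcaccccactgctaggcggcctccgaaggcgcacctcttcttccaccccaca
Psmb6 (chr11:70525207-70525356, plus strand): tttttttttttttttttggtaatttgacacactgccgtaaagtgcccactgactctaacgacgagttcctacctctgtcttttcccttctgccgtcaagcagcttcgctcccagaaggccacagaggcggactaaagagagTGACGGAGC
Psmb9 (chr17:34187331-34187480, minus strand): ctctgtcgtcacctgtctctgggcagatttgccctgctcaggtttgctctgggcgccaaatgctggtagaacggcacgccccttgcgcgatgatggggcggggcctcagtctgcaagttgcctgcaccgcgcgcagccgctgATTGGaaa
Psmb5 and Psmb6 each hold TGACNNNGC, at -47 to -39 and -9 to -1 from the start. Psmb8 holds TTCNNNGAA at -97 to -89, and Psmb9 the reverse of CCAAT at -8 to -4. The window of Psmb10 holds none of the 4 motifs. In the whole window of 250 bases before to 50 after the start, 37 of the 44 members had a sequence, with 40 promoters. TGACNNNGC was in 6 of these 40 (15%) and in 12.4% of all 32851 promoters, the interferon-stimulated element in 4 (10%) and 3.44%, TTCNNNGAA in 2 (5%) and 8.3%, and CCAAT in 15 (37.5%) and 37.4%. The interferon-stimulated element was found near the start of Psmb3, Psmd4, Psmd9 and Psme1. A match says only that the letters are there.

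Psmb8 was lower in mThy1-α-synuclein mice by a similar amount at both ages without passing the threshold. At 7 months it was from 3167 to 3575 with a median of 3271 in the mThy1-α-synuclein mice and at 3929, 3695, 4464 and 3499 in the wild-type mice, so that 1 wild-type mouse was inside the other group's range, and the log2 fold change was -0.22 (SE 0.0789, 95% CI -0.39 to -0.051, adjusted p = 0.122). The 10-month values were 3005, 3671, 3224, 3679.5 and 3179 against 3333, 4355, 3898, 3457 and 4534, with -0.22 (SE 0.0942, 95% CI -0.42 to -0.017, adjusted p = 0.173). Psmb9 varied more between mice than Psmb8 and Psmb10. It was from 1024 to 1729.6 with a median of 1184 against 1537, 1227, 1796 and 1354 at 7 months and at 1259, 1319, 1189, 1506 and 1099.7 against 1289.8, 2063, 1434, 1144 and 1809 at 10 months. Its log2 fold changes were -0.26 (SE 0.141, 95% CI -0.56 to 0.040, adjusted p = 0.305) and -0.25 (SE 0.146, 95% CI -0.57 to 0.060, adjusted p = 0.32). The annotated exons of Psmb9 overlap those of Tap1 on the other strand over 5.79% of their length, and those of Psmb8 overlap Gm20496 over 14.7%.

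Psmb10 did not follow the other immunoproteasome subunits at 7 months. It was from 1797 to 2399 with a median of 2017 in the mThy1-α-synuclein and at 1825, 1734, 2114 and 1794 in the wild-type mice, a log2 fold change of 0.13 (SE 0.0914, 95% CI -0.063 to 0.33, adjusted p = 0.431). At 10 months the sign was the other one, with 1520.5, 2049, 1715, 2033 and 1744 against 1903, 2261, 2429, 1691 and 2553 and -0.25 (SE 0.117, 95% CI -0.50 to 0.00054, adjusted p = 0.213). The change between ages was -0.38 (SE 0.154, 95% CI -0.70 to -0.064, adjusted p = 0.14), the largest among the members, and it did not pass the threshold. The class median was -0.22 at 7 months (2 of 3 lower) and -0.25 at 10 months (3 of 3 lower), and -0.126 at 10 months without mThy1-α-synuclein replicate 1 and wild-type replicate 5. Monocytes, neutrophils and lymphocytes also express these subunits. Of the 10-month wild-type mice, replicates 2 and 5 had the highest Psmb8 and Psmb9 (4355 and 4534, 2063 and 1809), and their summed lymphocyte markers were at 1763 and 1629 beside 705 to 1205 in the other 3, whereas the monocyte and neutrophil sums were highest in replicate 3 (40405 and 253838). Of the 7-month wild-type mice, replicate 3 had the highest Psmb8 and Psmb9 (4464 and 1796) and the lowest lymphocyte sum (1055). The part of these cells in the result was not tested.

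The exchange of subunits was followed by the log2 ratio of an immunoproteasome subunit to its constitutive counterpart within each mouse, with a two-sided exact permutation test for each of 3 pairs at 2 ages and Benjamini-Hochberg adjustment over the 6 tests. The smallest p allowed by the design was 0.00476 at 7 and 0.00794 at 10 months. For Psmb10/Psmb7 at 7 months the ratios of the 4 wild-type mice were -0.99, -0.87, -0.88 and -0.92, and those of the 6 mThy1-α-synuclein mice were between -0.86 and -0.42. The groups did not overlap, and the mean of the mThy1-α-synuclein mice was higher by 0.22 (two-sided exact permutation p = 0.0190, adjusted p = 0.114). At 10 months the ratios were -1.01, -0.67, -0.85, -0.82 and -0.82 in the mThy1-α-synuclein and -0.76, -0.41, -0.33, -0.89 and -0.49 in the wild-type mice, a difference of -0.25 in the other direction (exact permutation p = 0.0794, adjusted p = 0.238). The other 4 tests gave differences of 0.063 and 0.20 for Psmb8/Psmb5 and -0.017 and -0.070 for Psmb9/Psmb6 at 7 and 10 months, with exact permutation p of at least 0.302. The Psmb8/Psmb5 ratio stayed positive in all 20 mice, from 1.89 to 2.91.

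**Figure D4:**
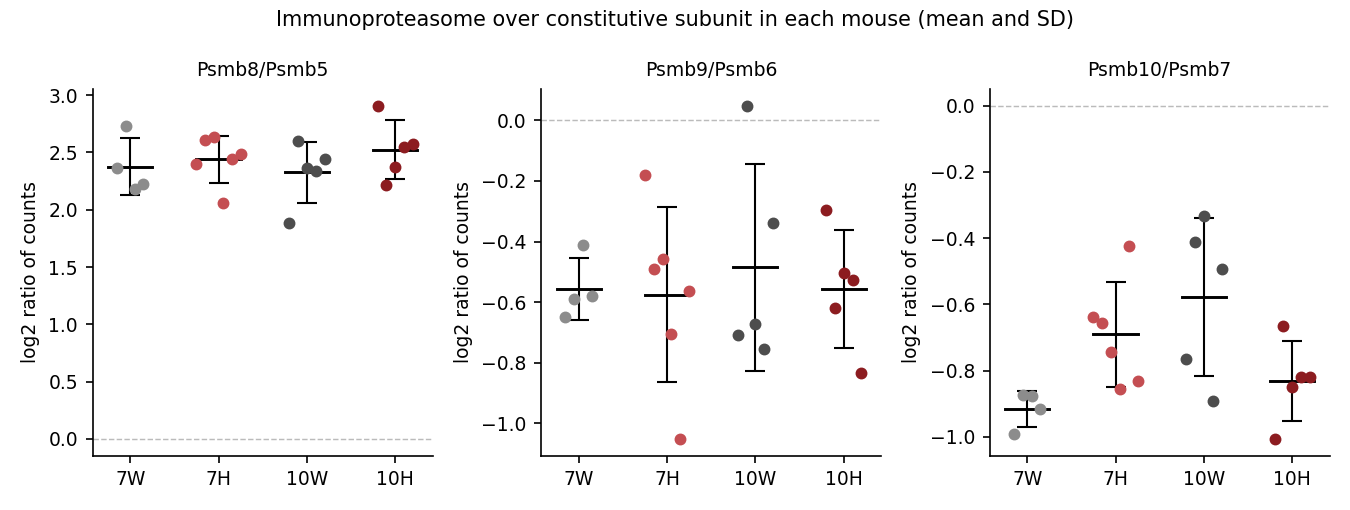
Log2 ratio of depth-normalized counts of Psmb8 over Psmb5, Psmb9 over Psmb6 and Psmb10 over Psmb7 in every mouse, not corrected for gene length. Points are mice, long lines are group means, bars are SDs and dashed lines mark equal counts. For Psmb10/Psmb7 the 7H mice lie above the 7W mice, and at 10 months the group means are in the reverse order.

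The ATPases of the 19S base, which unfold the substrate, were also close to level. At 7 months 5 of 6 had the higher mean in mThy1-α-synuclein mice (class median 0.051, log2), and at 10 months 5 of 6 the lower mean, with -0.066. The range of the class was -0.072 (Psmc3) to 0.087 (Psmc6) at 7 months and -0.11 (Psmc6) to 0.050 (Psmc4) at 10 months, and no unadjusted p was under 0.157. Psmc2 was the tightest member of all: its mean ± SD was 4713 ± 127 and 4479 ± 164 at 7 months and 4327 ± 214 and 4487 ± 114 at 10 months (mThy1-α-synuclein first). Its log2 fold changes were 0.074 (SE 0.0612, 95% CI -0.056 to 0.20, adjusted p = 0.517) and -0.054 (SE 0.0583, 95% CI -0.18 to 0.071, adjusted p = 0.629).

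Among the 11 other 19S subunits the class median was -0.017 at 7 months (6 lower) and -0.053 at 10 months (8 lower). Psmd11, a subunit of the lid, was the highest at 7 months. It was at 2739, 2604, 2706 and 2787 in the wild-type mice and from 2791 to 3336 with a median of 3059 in the mThy1-α-synuclein mice, all of which were above every wild-type mouse, with a log2 fold change of 0.17 (SE 0.0729, 95% CI 0.016 to 0.33, adjusted p = 0.189). At 10 months it was at -0.053 (adjusted p = 0.647). Psmd4, a ubiquitin receptor, was the lowest at 7 months, at -0.17 (adjusted p = 0.199), and at -0.090 at 10 months. Psmd14, the deubiquitinase of the lid, was at 0.012 and -0.038, and the scaffolds Psmd1 and Psmd2 were between -0.062 and 0.038 at both ages.

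Psmd6, another lid subunit, was the lowest of the class at 10 months. It was at 2462, 2588, 2547, 2819 and 2551 in the mThy1-α-synuclein and 3264, 2648, 2678, 2959.6 and 3283 in the wild-type mice, with overlap at the wild-type replicates 2 and 3 and a log2 fold change of -0.19 (SE 0.0772, 95% CI -0.35 to -0.025, adjusted p = 0.151). At 7 months it was from 2743 to 2969 with a median of 2863 against 2654, 2797, 2517 and 2728, with 0.096 (SE 0.0651, 95% CI -0.042 to 0.23, adjusted p = 0.42). The change between the ages was therefore negative, at -0.29 (SE 0.0955, 95% CI -0.48 to -0.088, adjusted p = 0.072). DESeq2 gave an adjusted p of 0.0468 for it, the only member called by any of the 3 tools. Over all alternatives the adjusted p of this change ran from 0.0442 to 0.187. It was under 0.05 by limma without wild-type replicate 2 or 3 of 10 months.

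The chaperones of the 19S base, Psmd5, Psmd9 and Psmd10, had a class median of -0.056 at 7 and -0.13 at 10 months, and of 0.021 at 7 months without wild-type replicate 3. Psmd10 (gankyrin) was the lowest at each age, with -0.16 (SE 0.103, 95% CI -0.38 to 0.062, adjusted p = 0.401) and -0.19 (SE 0.0845, 95% CI -0.37 to -0.013, adjusted p = 0.18). Psmd5 was at 0.056 and -0.13. The exons of Psmd9 overlap Gm26745 on the other strand over 25.5% of their length, and its fold changes were -0.056 and -0.0073.

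The activators Psme1 and Psme2 form the PA28 cap of the cytoplasm, which interferon induces together with the immunoproteasome, and lie close together on chromosome 14 (chr14:55578123-55581529 and chr14:55587441-55591113). Psme1 was at 9988, 10247, 9859 and 8911 in the 7-month wild-type mice and from 8068 to 9138 with a median of 8513 in the mThy1-α-synuclein mice, of which 1 exceeded the lowest wild-type value. The log2 fold change was -0.19 (SE 0.066, 95% CI -0.33 to -0.045, adjusted p = 0.117) at 7 months and -0.013 (SE 0.0833, 95% CI -0.19 to 0.16, adjusted p = 0.946) at 10 months. Psme2 had the reverse order of ages, with -0.043 (SE 0.0724, 95% CI -0.20 to 0.11, adjusted p = 0.77) and -0.18 (SE 0.0847, 95% CI -0.36 to -0.00081, adjusted p = 0.21), at 3715, 4127, 3981, 4099 and 3488 against 4293, 4779, 4059.8, 3826 and 5139.8 in the 10-month mice. Reads of Psme2 could be shared with the retrocopy Psme2b, and its values are uncertain to that extent. Psme3, the nuclear member of the family, was at -0.0059 and -0.075. Psme4, which encodes the nuclear activator PA200, was at -0.0047 at 7 months and was the highest of the class at 10 months, with 0.18 (SE 0.0861, 95% CI -0.0049 to 0.36, adjusted p = 0.225) and values of 6206, 5273, 5182, 4543 and 5736 against 4906, 5116, 4327, 5071 and 4315. Psmc3ip, the gene that is no subunit, was at -0.18 and -0.37, with the widest intervals of the tested members.

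Class means per mouse showed how far single mice set these values. Wild-type replicate 3 was the highest of the 10 mice in 18 of 43 members at 7 months, and mThy1-α-synuclein replicate 3 in 10. At 10 months wild-type replicate 5 was the highest in 21 and mThy1-α-synuclein replicate 1 the lowest in 22. For the constitutive beta ring the mean log2 deviation from the mean of all mice was between -0.14 and -0.012 in the 7-month mThy1-α-synuclein mice and between -0.10 and 0.32 in the wild-type mice, so that the wild-type mice spread wider than the genotypes differed. For the immunoproteasome subunits at 10 months it was between -0.26 and 0.067 in the mThy1-α-synuclein and between -0.18 and 0.37 in the wild-type mice.

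**Figure D5:**
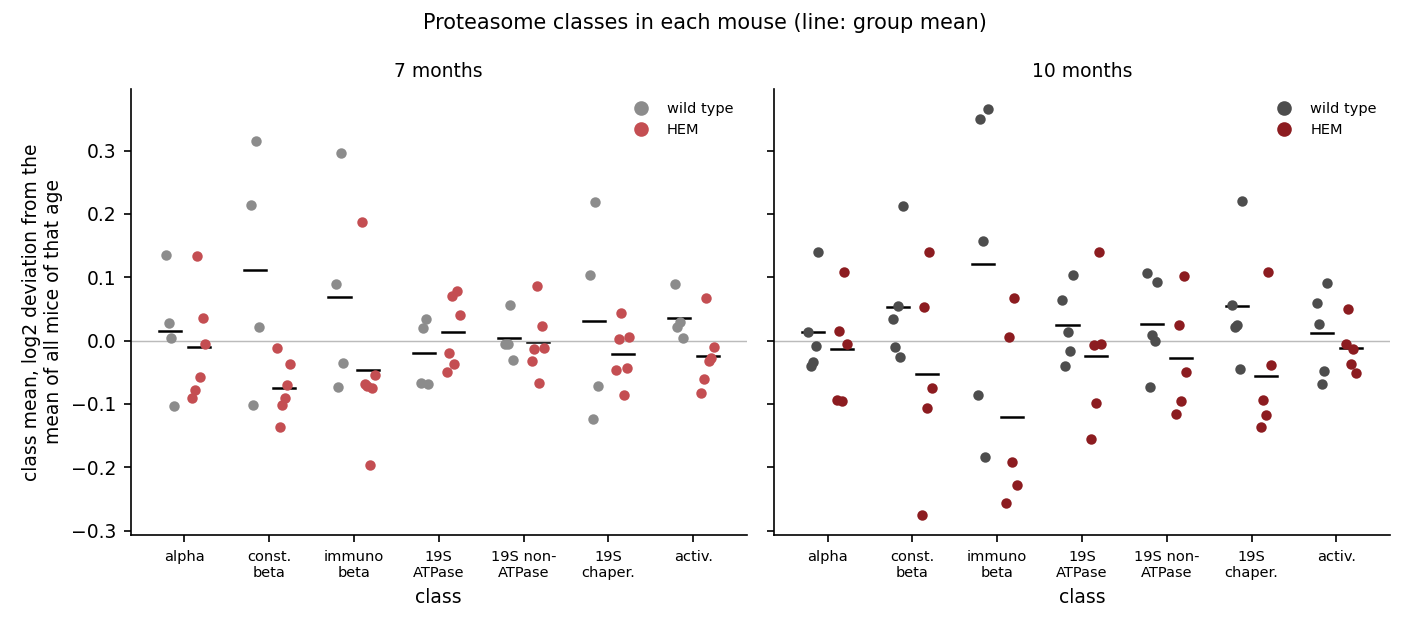
Mean over the genes of a class of the log2 deviation from the mean of all mice of that age, at 7 months (left) and 10 months (right). Points are mice and lines are group means. The 7H mice lie below 0 in the constitutive beta ring while the 7W mice spread to each side, and the immunoproteasome class at 10 months spans -0.26 to 0.37 with overlapping genotypes.

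A direct test of whether the genotype difference changed between the ages called 0 of 43 members with limma and 0 with edgeR, beside 6.6% and 6.8% of all genes, and 1 with DESeq2 (Psmd6), beside 9.7%. At an unadjusted p under 0.05 there were 4 members, where 22.2% of all 14030 genes tested had one: Psmb10, Psmd6, Psmd11 and Psmd12, all with a lower value at 10 months relative to 7 months (10.7% of all genes). Psmd12, a lid subunit, had -0.26 (SE 0.105, 95% CI -0.48 to -0.040, adjusted p = 0.145), and Psmd11 -0.22 (SE 0.087, 95% CI -0.40 to -0.044, adjusted p = 0.125). The remaining 39 members included all alpha, constitutive beta, ATPase, chaperone and activator genes.

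Proteasome genes were also more even between mice than most genes. The median SD within groups on the log2 scale was 0.111 for the 43 members and 0.198 for all tested genes at 7 months, and 0.126 and 0.187 at 10 months, and 38 of 43 members were below the median of all genes at each age. The members are highly expressed, which lowers the counting noise. Against genes within 0.5 log2 units of their own level, the median member exceeded 33.4% of them in SD at 7 months and 45.9% at 10 months. Psmc2 had the smallest SD at each age (0.0447 and 0.0558), and Psmb5 (0.262 and 0.278) and Psmb9 (0.258 and 0.275) were among the largest.

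Genes around the proteasome that the naming pattern leaves out were counted by function. Of the 19S subunits Adrm1, a ubiquitin receptor, and Shfm1 (Sem1, a small subunit of the lid), Shfm1 was lower at 10 months. It was at 2015, 2498, 2276, 2316 and 2189 in the mThy1-α-synuclein and 2659, 3073, 2898, 2469 and 3401 in the wild-type mice, with overlap at 1 mouse of each group and a log2 fold change of -0.35 (SE 0.089, 95% CI -0.54 to -0.16, adjusted p = 0.029). It lost the call without mThy1-α-synuclein replicate 1, 3 or 5 or wild-type replicate 2, 3 or 5, with adjusted p up to 0.127 over the alternatives. At 7 months it was at -0.24 (adjusted p = 0.274). None of 6 assembly factors of the 20S core (Pomp and Psmg1 among them) passed at either age by limma, edgeR or DESeq2. At each age 1 of the 6 had an unadjusted p under 0.05 by limma, beside 21.3% of all genes at 7 months and 23.5% at 10 months.

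Ddi2, a protease that activates the transcription factor Nfe2l1 for proteasome genes and also carries ubiquitinated proteins to the proteasome, was the only gene called within an age by limma among 16 proteasome-associated genes and among 8 regulators of proteasome genes, on both of which lists it stands. At 10 months it was at 877, 708, 913, 762 and 789 in the mThy1-α-synuclein and 634, 567, 551, 513 and 573 in the wild-type mice, without overlap, and rose with a log2 fold change of 0.51 (SE 0.0962, 95% CI 0.30 to 0.71, adjusted p = 0.00794). At 7 months it was at -0.0077 (adjusted p = 0.983), and the difference between the ages was 0.52 (SE 0.16, 95% CI 0.19 to 0.85, adjusted p = 0.0531). That difference passed with edgeR (adjusted p = 0.0417), with DESeq2 (adjusted p = 0.0225), with a filter of at least 50 (adjusted p = 0.0488) and without 7-month wild-type replicate 1 (adjusted p = 0.0114), 7-month mThy1-α-synuclein replicate 4 or 10-month mThy1-α-synuclein replicate 2. It did not pass in the remaining alternatives, with an adjusted p of up to 0.149 by limma with a replicate block. edgeR and DESeq2 also called the difference between the ages for the regulators Nfe2l2, the transcription factor of the antioxidant response, and Ngly1, which removes sugar chains from Nfe2l1, at -0.36 and -0.29 by limma (adjusted p = 0.0541 and 0.0518). The exons of Ddi2 include those of Rsc1a1 over 18.3% of their length. Nfe2l1 itself did not pass at either age.

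Of 4 ubiquitin and ubiquitin-activating genes, Rps27a, which encodes ubiquitin fused to a ribosomal protein, was the only one called by limma, on the lower side at 7 months. Rps27a was from 31629 to 36476 with a median of 33538 in the mThy1-α-synuclein mice and at 54628, 45260.4, 53472 and 42266 in the wild-type mice, without overlap, and fell with a log2 fold change of -0.52 (SE 0.0822, 95% CI -0.69 to -0.34, adjusted p = 0.00275). At 10 months it was at 0.043, and the change between the ages passed the test, at 0.56 (SE 0.121, 95% CI 0.31 to 0.81, adjusted p = 0.0079). The polyubiquitin gene Ubb did not pass by limma at either age. At 7 months it was from 18298 to 22427 in the mThy1-α-synuclein mice and at 23009, 24065, 30440 and 24836 in the wild-type mice. These groups did not overlap, as for 3.97% of all genes on the lower side. DESeq2 called 2 of the 4 genes at 7 months, beside 8.51% of all genes.

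Of 14 listed interferon genes that act on the immunoproteasome, 2 passed the limma test at each age. The list was chosen with earlier results of these data known, so a share above that of all genes is no independent evidence. At 7 months 1 of 14 listed genes had the lower mean in mThy1-α-synuclein mice, beside 49.8% of all genes, and 2 were called, on the higher side, beside 4.93% of all genes called. At 10 months 11 of 14 had the lower mean, beside 50.5%, and 2 were called, on the lower side, beside 7.67%. At an unadjusted p under 0.05 by limma, 5 were on the higher side at 7 months (10.7% of all genes). At 10 months 7 were on the lower side (12%). DESeq2 called 2 of the 14 at 7 months and 3 at 10 months (8.51% and 12.4% of all genes). The called genes at 7 months were receptor chains. Ifngr1, of the receptor for interferon gamma, was at 25810.04, 26433, 30048 and 29972 in the wild-type mice and from 33396 to 41436 with a median of 37586 in the mThy1-α-synuclein mice, without overlap, with 0.42 (SE 0.0756, 95% CI 0.26 to 0.58, adjusted p = 0.0048). Ifnar2, of the receptor for type I interferon, rose with 0.60 (SE 0.128, 95% CI 0.32 to 0.88, adjusted p = 0.0175) and lost the call without wild-type replicate 2, 3 or 4 (adjusted p up to 0.0591). At 10 months the called genes were transcription factors. Irf1, which activates the immunoproteasome genes, fell with -0.36 (SE 0.102, 95% CI -0.58 to -0.15, adjusted p = 0.0434), and Irf9, the DNA-binding part of the type I interferon response complex, with -0.37 (SE 0.0959, 95% CI -0.57 to -0.16, adjusted p = 0.0333). Each lost the call in most fits that left out 1 mouse of that age, with adjusted p up to 0.102 for Irf1 and 0.078 for Irf9 over the alternatives.

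Between the ages 4 of these 14 genes passed the test by limma, beside 6.6% of all genes. The value was lower at 10 months relative to 7 months in 12 of the 14, beside 50.4% of all genes. Of these, 11 had an unadjusted p under 0.05 (10.7% of all genes). edgeR called 4 and DESeq2 called 7 (6.8% and 9.7% of all genes). The 4 genes called by limma were all lower: Ifngr1 at -0.53 (adjusted p = 0.0131), Irf9 at -0.48 (adjusted p = 0.0168), Ifnar1 at -0.40 (adjusted p = 0.0366) and Ifnar2 at -0.52 (adjusted p = 0.0414). Ifngr1 and Irf9 kept this call in each of the 20 fits that left out 1 mouse, while Ifnar1 lost it in 11 of them (adjusted p up to 0.098) and under a replicate block (adjusted p = 0.0659), and Ifnar2 lost it in 15 (adjusted p up to 0.0899) and with no filter on low values (adjusted p = 0.0561). In the same test Psmb10 was at -0.38 (adjusted p = 0.14), and Psmb8 and Psmb9 at 0.00049 and 0.0063. Among 10 neighbours of Psmb8 and Psmb9 in the MHC region only H2-Ob, a chain of the MHC class II editor H2-O, was called by limma, and it was higher at both ages, at 0.72 (adjusted p = 0.00844) and 0.64 (adjusted p = 0.00765), without overlap between genotypes. At 10 months its values were 1785, 1309.99, 1560.3, 1831 and 1749.9 against 777, 1136, 1099, 1168 and 1108. Of the 10 neighbours, 4 had the lower mean at 7 months and 8 at 10 months, beside 49.8% and 50.5% of all genes. H2-Eb1 was the lowest at each age (-0.41 and -0.80). At an unadjusted p under 0.05 by limma, 3 and 4 were on the lower side (10.6% and 12% of all genes). DESeq2 called 1 and 3 (8.51% and 12.4%). Between the ages all 10 were lower, beside 50.4% of all genes, and limma called 0.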

How the data were processed

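RNA of single-mouse microglia samples (n = 6, 4, 5 and 5) was trimmed (Trim Galore 0.6.7), mapped to mm10 (HISAT2 2.2.1) and counted per gene (featureCounts) by the authors, with annotation, strand and multimapping settings not given in the sources used here. The signal values deposited by the authors are counts divided by a DESeq2 size factor of the mouse within its age, and whole reads were recovered from them in all mice but 1, whose step was too near 1 to test. Such depth makes counting error small, so errors are SDs between mice and SEs of fits.

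Genotypes were compared within each age with limma 3.58.1 on log2(value + 1), with trend and robust settings, for genes with at least 10 in at least 4 (7 months) or 5 mice (10 months), and Benjamini-Hochberg adjustment over all genes tested. Fold changes on this scale understate changes of low genes. edgeR 4.0.16 and DESeq2 1.42.0 on the recovered reads were alternatives, and all 3 were tested on simulated data. Of members and listed genes, 165 of 166 matched the annotation. The members and lists were chosen with earlier results of these data known. Named by rule were the catalytic subunits, the activators, members past the threshold, the lowest and highest of each class, members not tested, called genes of the lists, and Thy1. Psma6, Psmb1, Psmb3, Psmc2, Psmd1, Psmd2, Psmd12, Psmd14, Nfe2l1, Nfe2l2, Ngly1 and Ubb were named after their values were seen. Some results are not reported here. Nothing states that mice of a group came from independent litters. The p-values weigh the genotype difference against the spread between these mice and take the mice as independent. No libraries within a group agreed to counting noise (chi-square of at least 24.7 per gene in all 41 comparisons).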

Additional observations from a re-analysis of the deposited data

Results flagged for a closer look

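In 7 of the 172 groups of member values, 1 mouse lay apart from the others of its group by Dixon's criterion, which chance meets in about 1 in 20 groups. At 10 months, wild-type replicate 5 was high for Psma7 (4867 beside 3885 to 3998 in the other mice of its group), Psmb1 (5491 beside 4059.6 to 4384) and Psme1 (10729.6 beside 8085 to 8784). Wild-type replicate 1 of that age was high for Psme3 (5963 beside 4992 to 5122). At 7 months, mThy1-α-synuclein replicate 1 was high for Psmb9 (1729.6 beside 1024 to 1252) and low for Psmc5 (2868 beside 3229.9 to 3436), and wild-type replicate 2 was low for Psmd5 (1311 beside 1630.3 to 1688).

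No member differed between the ages in its genotype difference by limma. Of the genes named outside the members, 6 did (log2 scale, 10 months minus 7 months, limma): Rps27a at 0.56 (adjusted p = 0.0079), Irf9 at -0.48 (adjusted p = 0.0168), Ifngr1 at -0.53 (adjusted p = 0.0131), Ifnar1 at -0.40 (adjusted p = 0.0366), Ifnar2 at -0.52 (adjusted p = 0.0414) and Thy1 at 1.86 (adjusted p = 0.0205). Ages were normalized and processed separately, and age and processing cannot be told apart. Over the alternatives the adjusted p rose to 0.098 for Ifnar1, 0.0899 for Ifnar2 and 0.0669 for Thy1.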

How the results depend on the processing

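Across 67 fits with another pseudocount, filter, scaling, tool, block or set of mice, 63 called 0 members. The other 4 called 1 each: Psmb5 at 10 months without mThy1-α-synuclein replicate 2, and Psmd6 in the difference between ages with DESeq2 or without wild-type replicate 2 or 3 of 10 months. Counts called over leave-one-out fits were 0 to 0 members at 7 months, 0 to 1 at 10 months and 0 to 1 between ages. Over all genes they were 280.00 to 859, 497 to 1235 and 623 to 1091, beside 684, 1045 and 926. DESeq2 called 1158 genes at 7 and 1695 at 10 months. Members lower in mThy1-α-synuclein mice numbered 26 to 32 and 28 to 38 over leave-one-out fits. The fit without both mThy1-α-synuclein replicate 1 and wild-type replicate 5 was chosen after seeing the data. It leaves out mice that were extreme in the members, which moves member differences upward by construction. This fit called 343 genes and 0 members at 10 months, with 26 members lower. Equal replicate numbers did not pair the mice: their correlations of deviations were between -0.13 and 0.0995. A replicate block called 414 genes at 7 months and 481 between ages, and 0 members in each. No call of a named gene changed direction, and 102 values of genes not called in either fit changed sign. Psmb11 was too low to be tested at this depth.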
